A study of Mus musculus with 4 samples.

Results

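The miRNAs encoded inside the mouse Hox gene clusters were examined in 4 small RNA libraries that the labels describe as RNA immunoprecipitations for Argonaute2 (AGO2), the protein that carries mature miRNAs to their targets. The members are 6 of the 1900 miRNA names in the count table, chosen by name: mmu-miR-10a-5p, mmu-miR-10a-3p, mmu-miR-10b-5p, mmu-miR-10b-3p, mmu-miR-196a-5p and mmu-miR-196b-5p, where mmu stands for mouse and is mostly left out below. All libraries came from dissected olfactory bulb of C57BL/6 mice, collected 8 weeks after injection. The GFP-AGO2 group (n = 2) had received the vector LV.PGK.GFP-AGO2, named for a fusion of green fluorescent protein with AGO2, and the Control group (n = 2) was sham-injected. PGK is the usual short name of a promoter active in most cell types, so the name does not tie the fusion protein to 1 cell type. The labels give neither the age nor the sex of the mice, nor whether replicate libraries stem from different animals, so p-values reflect the spread among these libraries alone, which could be technical. No source used here names the antibody, and whether Control holds RNA of endogenous AGO2 or procedural background is therefore unknown.

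Hox genes encode transcription factors that set position along the body axis, and they are active in the trunk, spinal cord and hindbrain but not in the developing forebrain, to which the olfactory bulb belongs. The miR-10 and miR-196 genes lie between and within them, are transcribed in similar domains, and repress Hox mRNAs; miR-196 is known for directing cleavage of Hoxb8 mRNA. Outside the nervous system, miR-10 is also found in endothelium and in other tissues of the trunk.

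The sequences below are the mature 5p arms on which the comparisons rest, followed by their closest relatives in the table, to show how little separates the members from each other and from abundant brain miRNAs. They were taken from RefSeq (GRCm38.p6), where all 6 members were found, and capitals mark the seed, bases 2 to 8 from the 5′ end, with which a miRNA finds its targets.
miR-10a-5p: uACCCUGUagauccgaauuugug
miR-10b-5p: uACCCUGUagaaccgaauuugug
miR-196a-5p: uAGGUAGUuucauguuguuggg
miR-196b-5p: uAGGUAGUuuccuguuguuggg
miR-100-5p: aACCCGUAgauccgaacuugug
miR-99a-5p: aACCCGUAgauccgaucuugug
miR-99b-5p: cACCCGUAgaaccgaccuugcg
let-7b-5p: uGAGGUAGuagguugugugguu

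Each Hox pair shares its seed and differs at 1 base outside it, counted from the 5′ end: U12A from miR-10a-5p to miR-10b-5p, and A12C from miR-196a-5p to miR-196b-5p. Among the 1603 names of the table with a RefSeq sequence, no other name had the seed ACCCUGU or AGGUAGU. MiR-100-5p, a relative of miR-10 from outside the Hox clusters, has the different seed ACCCGUA but shares the stretch GUAGAUCCGAA with miR-10a-5p, at bases 7 to 17 of miR-10a-5p and 6 to 16 of miR-100-5p. The miR-196 seed AGGUAGU is also found in let-7b-5p, at bases 3 to 9, so that the 2 miRNAs carry the same 7 letters shifted by a single base. Let-7 is the miRNA family the study was about.

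In mm10, miR-10a-5p lies on chromosome 11 at 96317186 to 96317208 (plus strand), in the intergenic stretch 1059 bases before Hoxb4. MiR-10b-5p lies on chromosome 2 at 74726074 to 74726096 (plus strand), within introns of Hoxd3 and Hoxd4. MiR-196a-5p has 2 positions, an intergenic one upstream of Hoxb9 (chromosome 11, 96265187 to 96265208) and one in an intron of Hoxc5 between Hoxc10 and Hoxc9 (chromosome 15, 102973365 to 102973386), and its counts cannot be assigned to either. MiR-196b-5p lies on chromosome 6 at 52230129 to 52230150 (minus strand), in an exon of a non-coding Hoxa9 transcript. None of these positions overlaps another name of the table, so no read had to be shared with or lost to a second annotated miRNA there.

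Library totals ranged over 673916 to 1006861 miRNA counts for Control and 1858354 to 2809758 for GFP-AGO2, and 714 to 843 names were detected per library. Neuron-enriched miRNAs were present throughout, with miR-124-3p, the classic neuronal miRNA, at 4410 to 18748 counts. Of the 457 names tested across the table, 79 were called higher and 78 lower in GFP-AGO2.

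The Hox cluster miRNAs were rare but not all absent: 2 of the 6 members, the 5p arms of miR-10a and miR-10b, were counted in every library, and both took a smaller share of the counts in the 2 GFP-AGO2 libraries than in the 2 Control libraries. In CPM, counts scaled to a library total of 1000000 miRNA counts, mmu-miR-10a-5p averaged 137 ± 45.9 for Control against 37.1 ± 32.8 for GFP-AGO2 (SD, n = 2 each), a ratio of means of 3.69. For mmu-miR-10b-5p the averages were 29.5 ± 23.4 against 5.55 ± 5.84 CPM (SD, n = 2 each), a ratio of 5.30. Neither difference passed edgeR's test adjusted over the 457 names tested, whereas DESeq2 called both lower over the same names. Calls were common with either tool: of the 457 names, edgeR called 78 lower and 79 higher, and DESeq2 called 82 lower and 75 higher. Separation of the groups was common: 161 of the 457 names (35.2%) had both GFP-AGO2 libraries below both Control libraries, on the TMM-adjusted scale described below. The miR-196 members were at or near 0.

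MiR-10a-5p, the most abundant member, had 105 counts in Control replicate 1, or 104 CPM (95% exact Clopper-Pearson interval 85.3 to 126). In Control replicate 3 it had 114 counts, or 169 CPM (140 to 203). In GFP-AGO2 replicate 1 it had 39 counts, or 13.9 CPM (9.87 to 19.0), and in GFP-AGO2 replicate 3 it had 112 counts, or 60.3 CPM (49.6 to 72.5). GFP-AGO2 replicate 1 stood lowest by far although it was the deepest library, and the groups did not overlap. The gap within GFP-AGO2, 4.34-fold, was nevertheless larger than the gap between the nearest libraries of the groups, Control replicate 1 and GFP-AGO2 replicate 3, which was 1.73-fold. These intervals cover counting error only, since reads without molecular identifiers include PCR copies. By rank, miR-10a-5p was the name at place 185 of 804 and 164 of 714 in the Control libraries, and at place 336 of 843 and 231 of 828 in GFP-AGO2 replicates 1 and 3.

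MiR-10b-5p, which carries the same seed, had 13 counts in Control replicate 1 (12.9 CPM, interval 6.87 to 22.1) and 31 in Control replicate 3 (46.0 CPM, 31.3 to 65.3). It had 4 counts in GFP-AGO2 replicate 1 (1.42 CPM, 0.388 to 3.65) and 18 in GFP-AGO2 replicate 3 (9.69 CPM, 5.74 to 15.3). The order of the libraries was that of miR-10a-5p, with Control replicate 3 highest and GFP-AGO2 replicate 1 lowest. The intervals of Control replicate 1 and GFP-AGO2 replicate 3 overlapped, so these libraries could not be told apart at this depth.

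**Figure D1:**
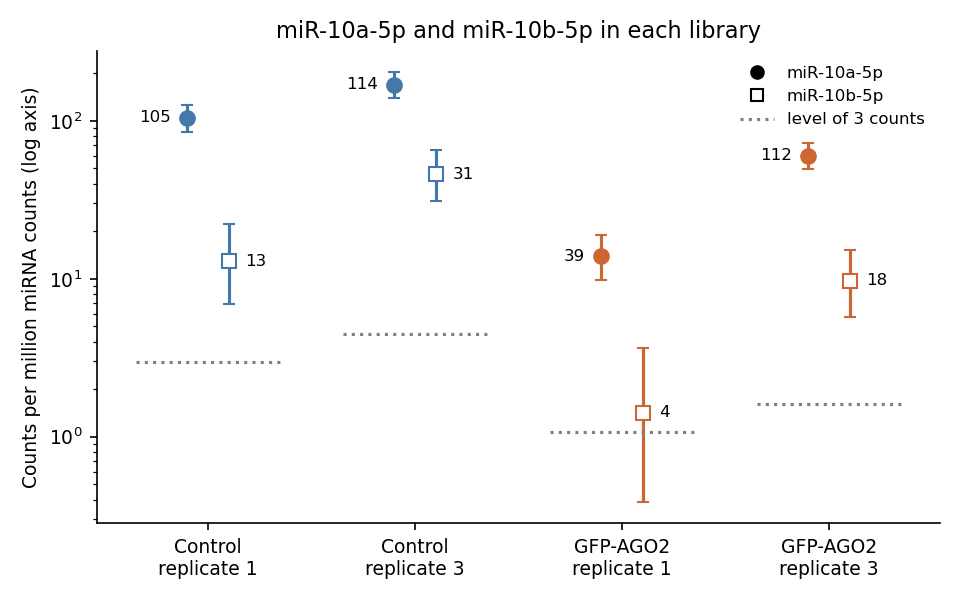
Level of miR-10a-5p (filled circles) and miR-10b-5p (open squares) in each library, in CPM on a log axis, with exact 95% intervals for counting error; numbers beside the points are the counts and dotted lines the level of 3 counts. Both names are lowest in GFP-AGO2 replicate 1 and highest in Control replicate 3, and miR-10a-5p lies above miR-10b-5p in all 4 libraries.

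The remaining members gave almost no counts. Mmu-miR-196a-5p had 1 count in Control replicate 1 and 0 in the other libraries, together 1 in 1680777 Control counts and 0 in 4668112 GFP-AGO2 counts. MiR-196b-5p, miR-10a-3p and miR-10b-3p had 0 in every library. A count of 0 allows a level of up to 2.98 and 4.45 CPM in Control replicates 1 and 3 and of up to 1.07 and 1.61 CPM in GFP-AGO2 replicates 1 and 3, taking 3 counts as the limit. No fold change can be given for these 4 names, since both groups lay at or under that limit. The other names from Hox cluster hairpins were miR-615-5p and miR-615-3p, from an intron of Hoxc5, and the 3p arms miR-196a-1-3p, miR-196a-2-3p and miR-196b-3p; all 5 were listed at 0 in the 4 libraries. Of 11 names from these hairpins, 8 therefore had no count anywhere, against 794 of the 1900 names of the table.

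The 5p arm was the only arm of either miR-10 hairpin that was counted. Over the 4 libraries, miR-10a gave 370 counts of the 5p arm and 0 of the 3p arm, which allows a 3p share of up to 0.811%. For miR-10b the counts were 66 and 0, which allows up to 4.55%. Of the 44 other hairpins whose more abundant arm had a total within 2-fold of that of miR-10a-5p, 7 (15.9%) had the other arm at 0, and of 82 hairpins near miR-10b-5p in total 32 (39.0%) did. An arm at 0 was thus not rare among these hairpins. Names that overlap another name were kept in this background, and their zeros need not show absence. The 5p to 3p ratio could not be compared between groups.

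Within each library miR-10a-5p exceeded miR-10b-5p, by 8.08 and 3.68 times in Control replicates 1 and 3 and by 9.75 and 6.22 times in GFP-AGO2 replicates 1 and 3. Both arms are 23 bases long, and the ratio does not depend on how libraries are scaled. As a share of the pair, miR-10b-5p made up 11.0% (95% exact interval 6.00 to 18.1) and 21.4% (15.0 to 29.0) in Control, and 9.30% (2.59 to 22.1) and 13.8% (8.42 to 21.0) in GFP-AGO2. The groups overlapped. On the log2 scale, with 0.5 added to each count, the ratio of miR-10b-5p to miR-10a-5p was -2.41 ± 0.78 for Control against -2.87 ± 0.37 for GFP-AGO2 (SD, n = 2 each; difference -0.46, exact two-sided permutation p = 0.67, with 0.33 the smallest this design allows). The difference was 0.10 without Control replicate 3, so its sign rests on that library.

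Setting GFP-AGO2 against Control asks whether vector-injected mice yielded these miRNAs in another proportion of the precipitated RNA. Only miR-10a-5p and miR-10b-5p passed the filter on low counts, which asks for about 7 CPM (6.98) in at least 2 libraries. MiR-10a-5p passed it in all 4 libraries. MiR-10b-5p passed it in both Control libraries and in GFP-AGO2 replicate 3, so the GFP-AGO2 libraries by themselves would not have kept it. On the scale of TMM-adjusted CPM, a scaling that allows for shifts in composition, miR-10a-5p had a mean of 149 ± 55.9 for Control against 34.0 ± 29.6 for GFP-AGO2 (SD, n = 2 each). Its log2 fold change was -2.14 (SE 0.71, edgeR adjusted p = 0.0673). MiR-10b-5p had 32.3 ± 26.6 and 5.09 ± 5.29 TMM-adjusted CPM (SD, n = 2 each), and a log2 fold change of -2.68 (SE 1.07, edgeR adjusted p = 0.113). With edgeR, 0 of the 2 tested members were called at an adjusted p under 0.05 and 1 had an unadjusted p under 0.05. As background, of the 457 tested names 17.3% were called higher and 17.1% lower, and 35.2% had both GFP-AGO2 libraries below both Control libraries on this scale, as both members did.

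**Figure D2:**
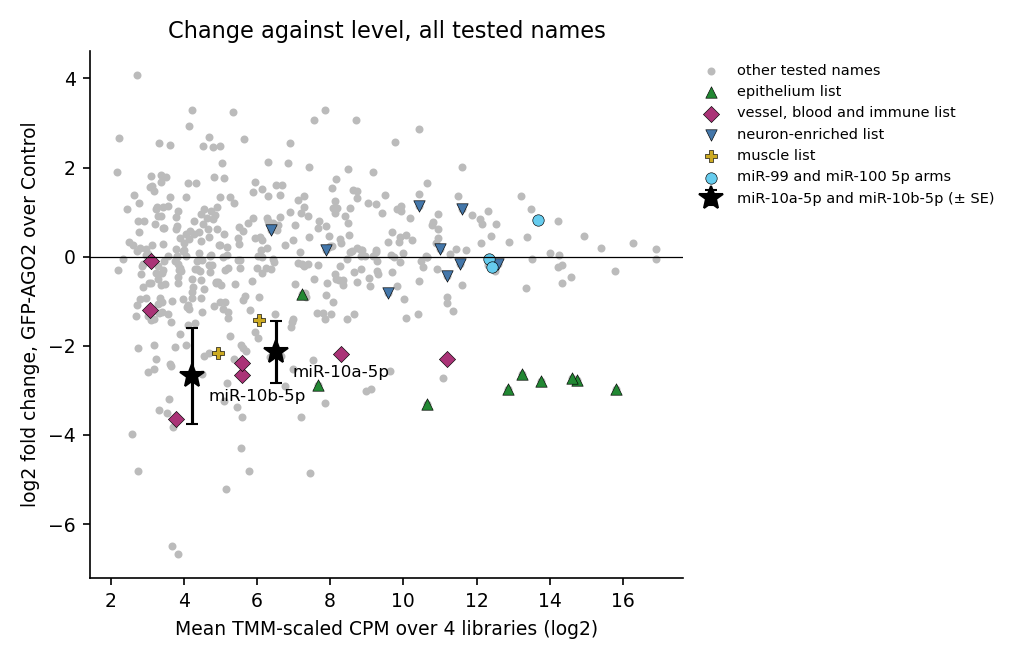
Log2 fold change of GFP-AGO2 over Control (vertical axis) against mean TMM-scaled CPM over the 4 libraries (log2, horizontal axis) for the 457 tested names, with the fixed lists marked by colour and shape. MiR-10a-5p and miR-10b-5p (stars, ± SE) lie at -2.14 and -2.68, in the range of the vessel and epithelium lists and below the neuron-enriched list.

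The call depended on the setting, as the plot of values under each setting shows: 5 of 11 alternatives called miR-10a-5p lower and 4 of 10 called miR-10b-5p lower. DESeq2 called both members lower, at -2.14 (SE 0.64, adjusted p = 0.00299) for miR-10a-5p and -2.68 (SE 1.10, adjusted p = 0.0432) for miR-10b-5p. Over all names it called 82 of 457 lower. With no filter on low counts edgeR called both as well, at -1.90 (SE 0.34, adjusted p = 4.15e-07) and -2.44 (SE 0.65, adjusted p = 0.00154). That fit took in 1106 names and called 84 of them lower and 118 higher. It also shifted the log2 fold changes of the names in both fits by a median of 0.24. The members' counts and the libraries were those of the reported fit, with SEs of 0.71 and 1.07, so the smaller SEs rest on no added libraries. The size depended on single libraries. For miR-10a-5p, leaving out GFP-AGO2 replicate 3 gave -3.48 and leaving out GFP-AGO2 replicate 1 gave -1.42. In these 2 fits only the Control libraries supply the spread, which limits the calls they add to the counts above. For miR-10b-5p the value was -3.35 and -1.52 without Control replicates 1 and 3, and -1.81 and -4.46 without GFP-AGO2 replicates 1 and 3. Every setting in which a member was tested gave it a value below 0.

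**Figure D3:**
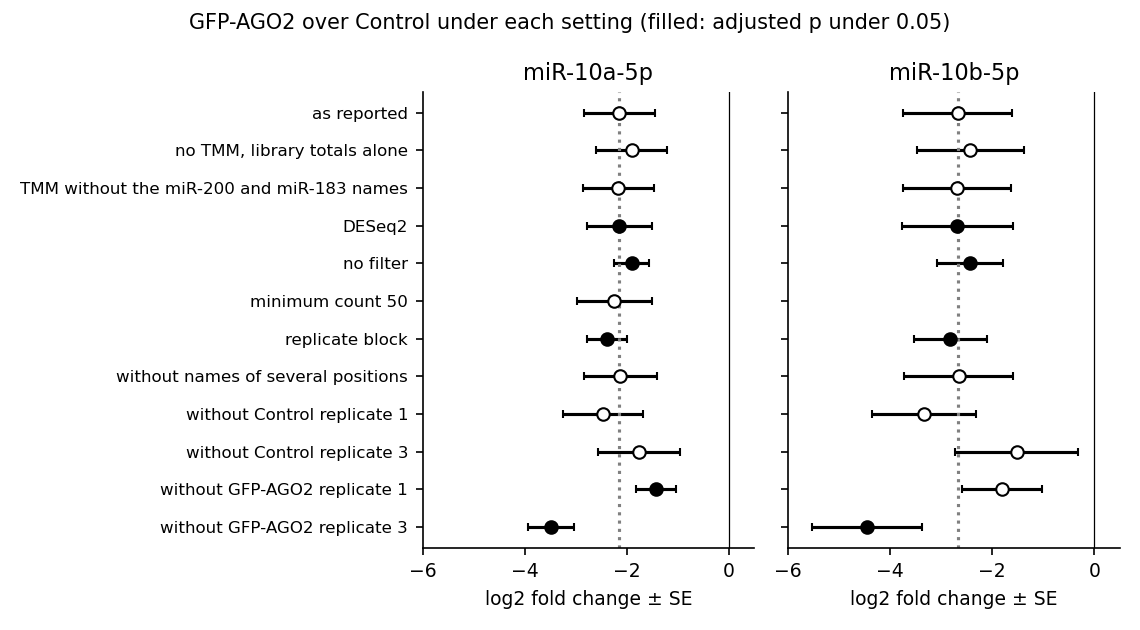
Log2 fold change ± SE of miR-10a-5p (left) and miR-10b-5p (right) under the reported fit and each alternative; filled points have an adjusted p under 0.05 and the dotted line marks the reported value. All points lie below 0, and the values range from -3.48 to -1.42 for miR-10a-5p and from -4.46 to -1.52 for miR-10b-5p, which was not tested at a minimum count of 50.

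Summed over the 6 members, the Hox cluster miRNAs made up 118 CPM of Control replicate 1 and 215 CPM of Control replicate 3, against 15.3 and 70.0 CPM for GFP-AGO2 replicates 1 and 3. The difference of -124 CPM exceeded the SD within Control (68.6) and within GFP-AGO2 (38.6), and the exact two-sided permutation test could go no lower than its value here, p = 0.33. It was -173 CPM without Control replicate 1 and -75.6 CPM without Control replicate 3, and -96.7 and -151 CPM without GFP-AGO2 replicates 1 and 3.

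The 5p arms of miR-99 and miR-100, which resemble miR-10 but are encoded elsewhere, were far more abundant, and their summed share was higher in both GFP-AGO2 libraries than in Control. They are 22 bases long against 23 for miR-10. Together they took 2.07% of Control replicate 1 and 1.75% of Control replicate 3, against 2.64% and 3.15% for GFP-AGO2 replicates 1 and 3. Of these 3 names, 1 rose and none fell: miR-99b-5p, by 0.83 on the log2 scale (SE 0.12, edgeR adjusted p = 0.00687). None rose when either Control library was left out, and 2 of the 3 were called lower without GFP-AGO2 replicate 3. MiR-100-5p had -0.22 (SE 0.21, adjusted p = 0.442) and miR-99a-5p -0.06 (SE 0.27, adjusted p = 0.887). Both were lowest in GFP-AGO2 replicate 1, as the miR-10 arms were, at 4227 and 3773 TMM-adjusted CPM. MiR-99b-5p supplied 50307 of the 74079 counts of the 3 names in that library, and 9284 of 20874 in Control replicate 1. Per 1000 counts of these relatives, miR-10a-5p had 5.03 (replicate 1) and 9.65 (replicate 3) counts in Control against 0.526 and 1.92 for the same numbers in GFP-AGO2. Let-7b-5p, which holds the miR-196 seed letters, took 11.1% to 13.7% of the counts of each library, while miR-196a-5p and miR-196b-5p together gave 1 count.

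Among the lists named for other tissues, 4 of 7 tested vessel, blood and immune names, 8 of 9 epithelium names and 1 of 2 muscle names fell in GFP-AGO2 by the edgeR test. Over all 457 tested names, 78 (17.1%) fell. The lists were chosen with earlier results of these data known, so these counts are descriptions. The list names are labels, and the cells that gave these counts were not determined. These libraries hold precipitated RNA of bulk tissue. Fewer cells of a type, less RNA per cell and a difference in what was precipitated cannot be told apart. The vessel, blood and immune list has 16 names, of which 15 are in the table and 3 were listed at 0 in all libraries (miR-126a-3p, miR-126a-5p and miR-142-3p, each of which overlaps another name, so these zeros do not show absence). Its summed level was 0.497% and 0.367% of the counts in Control and 0.0370% and 0.172% in GFP-AGO2 replicates 1 and 3. None of the 7 tested names rose, and their median log2 fold change was -2.29, beside -0.01 over all tested names. Without Control replicate 1 or Control replicate 3, 1 name was called, while leaving out GFP-AGO2 replicate 1 moved the median to -1.57 and leaving out GFP-AGO2 replicate 3 moved it to -3.18. The 2 most abundant were miR-143-3p of smooth muscle, at -2.29 (SE 0.74, adjusted p = 0.0637), and miR-146a-5p, induced in immune signalling, at -2.17 (SE 0.53, adjusted p = 0.0281). MiR-143-3p supplied 4269, 2029, 792 and 2701 of the list's 5009, 2472, 1039 and 3190 counts in Control replicates 1 and 3 and GFP-AGO2 replicates 1 and 3.

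The epithelium list, mainly miR-200 and miR-183 cluster names, was at 23.5% and 23.0% in Control and 2.57% and 5.01% in GFP-AGO2 replicates 1 and 3, and 8 of 9 tested names fell (median -2.79). None of its 10 names was at 0 in all libraries, and its most abundant name, miR-183-5p, was at -2.97 (SE 0.30). The muscle list was at 0.0170% and 0.0113% in Control and 0.00338% and 0.00705% in GFP-AGO2; of its 4 names, miR-133b-3p was listed at 0 throughout, 2 were tested and 1 fell, miR-206-3p, at -2.16 (SE 0.35). The neuron-enriched list was at 1.59% and 1.81% in Control and 2.23% and 2.01% in GFP-AGO2, with 2 of 9 names rising, 1 falling and a median of 0.15. Leaving out Control replicate 1 ended the calls of the muscle and neuron-enriched lists; leaving out Control replicate 3 ended the 1 neuron-enriched fall, and leaving out GFP-AGO2 replicate 1 made it 2. Without GFP-AGO2 replicate 3, 2 muscle names were called lower. The epithelium list had 8 or 9 names called lower in each of these fits.

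Relative to these lists, miR-10a-5p gave different pictures. Per 1000 counts of the neuron-enriched list Control replicates 1 and 3 had 6.57 and 9.37 counts of it against 0.622 and 2.99 for GFP-AGO2 replicates 1 and 3, so the groups stayed apart. Per 1000 counts of the vessel, blood and immune list it had 21.0 and 46.1 in Control and 37.5 and 35.1 in GFP-AGO2, and both GFP-AGO2 libraries fell between the Control libraries. Most counts of that list came from miR-143-3p in every library, so this ratio is mainly one to miR-143-3p. Per 1000 counts of the epithelium list it had 0.444 and 0.736 in Control and 0.541 and 1.20 in GFP-AGO2, and the groups overlapped. They also overlapped for the muscle list, at 614 and 1500 against 411 and 855. These ratios were chosen after the data had been seen, rest on 2 libraries a group, and are given as descriptions. Whether the difference of miR-10 has a source in common with that of any list was not tested.

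**Figure D4:**
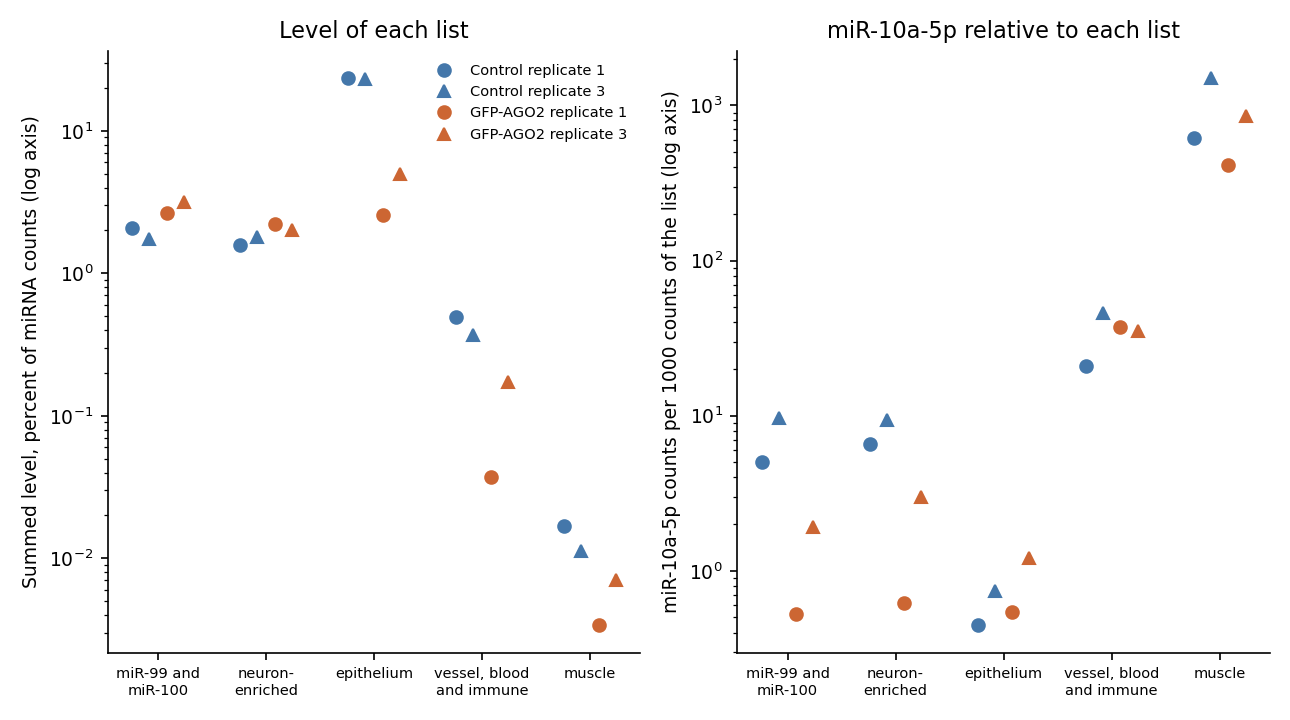
Left, the summed level of each list in percent of a library's miRNA counts; right, counts of miR-10a-5p per 1000 counts of the list; both on log axes, with Control in blue, GFP-AGO2 in orange, circles for replicate 1 and triangles for replicate 3. Relative to miR-99 and miR-100 and to the neuron-enriched list all GFP-AGO2 points lie below the Control points. Relative to the vessel, blood and immune list, most of whose counts are miR-143-3p, the GFP-AGO2 points lie between the Control points, at 37.5 and 35.1 against 21.0 and 46.1.

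By their profile over the 4 libraries, the tested names outside the Hox clusters most like miR-10a-5p were miR-101a-5p, miR-145a-3p, miR-455-3p, miR-199a-5p and miR-146a-5p. Likeness was the Euclidean distance between log2 CPM values, each name centred on its own mean, and it ran from 0.465 to 0.754 for these 5, against a median of 2.84 over all tested names outside the members. MiR-10b-5p, at 0.751, held place 5 among the 456 other tested names. Control replicates 1 and 3 held 73 and 54 counts of miR-145a-3p, against 19 and 41 for GFP-AGO2 replicates 1 and 3. MiR-199a-5p, which has several genomic positions, had 37 and 60 counts in Control and 8 and 52 in GFP-AGO2. MiR-101a-5p rests on 2 to 14 counts a library. MiR-145a-3p and miR-146a-5p belong to the vessel, blood and immune list.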

How the data were processed

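Small RNA counts of 4 libraries were used, 2 per group. The authors deposited whole-number counts per miRNA name; per the file headers featureCounts v1.4.6-p1 counted primary alignments against miRBase mouse miRNAs on mm10, without a strand option. Cutadapt and STAR are named in the submitters' processing notes, with versions not given in the sources used here. Columns were matched to samples by title.

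Changes were tested with edgeR 4.0.16 (R 4.3.3) by the two-sided quasi-likelihood F test, with TMM scaling, filterByExpr at a minimum count of 10 and Benjamini-Hochberg adjustment over 457 names; a call needs an adjusted p under 0.05. For edgeR, an SE is the absolute log2 fold change divided by the root of its F statistic. For DESeq2 it is the standard error which that tool reports, so the SEs of the tools are unlike measures. CPM without "TMM" uses library totals. DESeq2 1.42.0, other filters and scalings, left-out libraries and a replicate block were alternatives. Log2 fold changes shifted by a median of 0.21 without TMM and of 0.24 with no filter on low counts. Replicates were no copies of each other (chi-square 4486 and 47364 on 392 degrees of freedom for Control and GFP-AGO2). Positions were annotated with GENCODE M21, which uses the same build.

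Named were all members, the fixed lists with their most abundant tested names, the 5 nearest profiles and let-7b-5p. Members and lists were chosen with earlier results of these data known; the hairpin counts were added later.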

Additional observations from a re-analysis of the deposited data

How the results depend on the processing

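No Hox member was called higher under any setting. Over all names, DESeq2 called 82 of 457 lower, the fit with no filter 84 of 1106 and the replicate block 85 of 457. In place of 0 called lower, DESeq2, no filter and the replicate block each called 2, and the fits that leave out 1 library called 0 to 2. Over all names these fits called 47 to 94 higher and 43 to 106 lower, the lowest without Control replicate 1. The replicate numbers do not pair the libraries by any label, and same-numbered libraries did not deviate together (r = -0.06 over 457 names); with the replicate block miR-10a-5p had -2.38 (adjusted p = 0.00193) and miR-10b-5p -2.82 (adjusted p = 0.0125). Over 11 alternatives the edgeR or DESeq2 adjusted p of miR-10a-5p ran from 1.27e-12 to 0.183, with 5 calls; over 10 that of miR-10b-5p ran from 0.000169 to 0.413, with 4 calls. The log2 ratio of miR-10b-5p to miR-10a-5p differed by -1.01 to 0.10 with 1 library left out, changing sign without Control replicate 3 (0.10). A left-out library leaves 1 in its group, assumed to vary like the other group. The cause of these changes was not tested. Counts of 4 to 31 limit miR-10b-5p.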
